A study of Mus musculus with 137 samples.

Results

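In embryos labelled as injected with NR5A2 mRNA, the GFP reads of each embryo were taken to stand for the injected dose. The embryos were chosen by their GFP reads: of 67 single 2-cell embryos labelled SR1848_NR5A2OE, 42 had at least 100 CPM (counts scaled to the size of the library) of the summed GFP entries (17 in experiment 1 and 25 in experiment 2), out of 137 libraries in all. Another 14 embryos fell under 100 CPM, and 11 libraries were left out by name. Of these 11, 3 had few counts and 8 (embryos 1 to 8 of experiment 2) carried the label but no more than 0.452 CPM of GFP. Since the level of GFP selected the embryos, that level is a description, and the question was which other transcripts followed it.

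All embryos were of the B6129F1 strain, were taken as zygotes 5 hours after fertilization and were cultured in KSOM without oil. The 42 embryos received 10 µM SR1848, an inhibitor of NR5A2, from 6 hours after fertilization, and were injected with NR5A2 mRNA at 500 ng/µl. For context they were set beside 40 embryos labelled SR1848, with the inhibitor at the same dose and no mRNA, and 16 embryos of experiment 1 labelled DMSO, which received 0.1% DMSO; libraries with few counts were left out of both. The labels do not describe the GFP mRNA, its dose, or whether it was a fusion, and they do not name the parents of each embryo. Every p takes single embryos as the units, and whether some of them share parents is not known. Each library holds the polyadenylated RNA of a whole embryo, so fewer cells with a transcript and less of it per cell cannot be told apart.

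NR5A2, also called LRH-1, is a nuclear receptor that binds DNA as a monomer at an extended AGGTCA site. It is known for its part in pluripotency, in bile acid and steroid metabolism, and in genome activation of the early mouse embryo. In the 2-cell mouse embryo most RNA inherited from the oocyte is being degraded while the zygotic genome is switched on. A fluorescent mRNA injected together with another mRNA is a common way to see how much each embryo took up. The dose here is GFP as a share of the counts of each library, since the amount each embryo received is not in the labels. A gene that tracks this dose in proportion has a slope of 1 on the log2 scales used here, that is, it doubles when GFP doubles.

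GFP split the embryos kept under the label SR1848_NR5A2OE into clearly separate levels. The 42 embryos ran from 1426 to 10267 CPM with a median of 4139 CPM. The nearest embryo above the threshold was embryo 35 of experiment 2 at 1426 CPM, and the nearest below it was embryo 13 of experiment 2 at 70.8 CPM. GFP reached at most 3.23 CPM in the embryos labelled SR1848 and 0.765 CPM in those labelled DMSO. Among the 42 embryos the range was 7.20-fold, but the middle of the distribution was narrow: the quartiles were 3308 and 5257 CPM, 1.59-fold apart. GFP was well counted in every one of them, with at least 6510 counts and a median of 18586. Both GFP entries were present, and the second held between 48.2% and 68.2% of GFP counts.

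**Figure D1:**
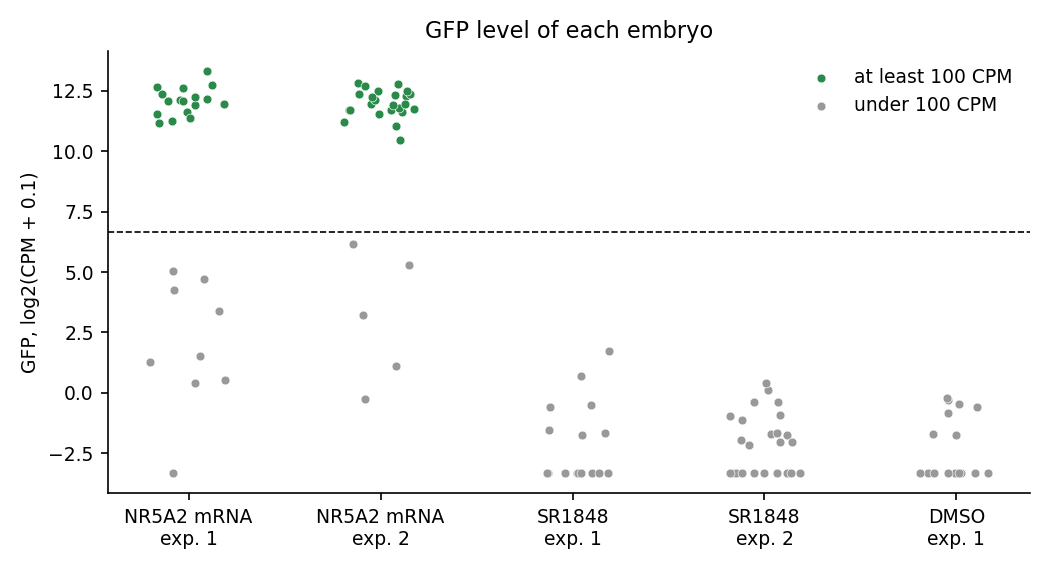
GFP level of each embryo on a log2 scale (CPM plus 0.1, so that embryos at 0 can be drawn), by label and experiment; each point is 1 embryo, the dashed line is the 100 CPM threshold, and points are spread sideways for visibility. Green points are the 42 embryos described here, at 1426 to 10267 CPM; no embryo drawn here lies between 70.8 and 1426 CPM.

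The libraries of the 42 embryos held 3383462 to 6481041 counts, and 12821 to 15707 genes were detected after thinning each to 1000000 counts. All 861 pairs of libraries differed by more than sampling noise (the smallest mean chi-square per gene was 19.6). The 7 markers of the 2-cell embryo fixed for the check each had counts in at least 28 of the 42 embryos (Tdpoz4 in the fewest). Their sum ran from 30.8 to 2242 CPM with a median of 127 CPM. The 7 oocyte markers, which mark inherited RNA, summed to 1647 to 6335 CPM. Cumulus and granulosa markers summed to 0.878 to 39.5 CPM over 8 genes with Amh at 0 in every embryo. Spermatid markers summed to 0.483 to 19.3 CPM over 7 genes. Blood and epithelium markers summed to 18.9 to 436 CPM over 6 genes, through Hba-a1, Hba-a2 and Epcam, with Hbb-bs and Hbb-bt at 0 in every embryo.

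Nr5a2 mRNA followed GFP closely. Nr5a2 (ENSMUSG00000026398, GRCm38 chr1:136842571-136960448) had 1691 CPM in the embryo with the lowest GFP and 8463 CPM in the embryo with the highest, and these were also its lowest and highest values. Its median was 3526 CPM in the 42 embryos, against 13.2 CPM in embryos labelled SR1848 and 115 CPM in embryos labelled DMSO. None of the 42 embryos overlapped with either group, whose highest values were 29.5 and 189 CPM. The slope was 0.89 per doubling of GFP (SE 0.056, 95% interval 0.78 to 1.00, n = 42, adjusted p = 3.45e-16, edgeR quasi-likelihood test with Benjamini-Hochberg adjustment over 12364 genes). Within experiments the slopes were 0.98 in experiment 1 and 0.83 in experiment 2.

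The correlation of log2 Nr5a2 with log2 GFP, centred within experiment, was r = 0.954 with rho = 0.928 (permutation p = 1e-05 for each, the smallest the 100000 permutations can give; adjusted p = 0.0001 over 10 per-embryo measures). It was 0.986 in experiment 1 and 0.932 in experiment 2, and 0.948 without the 2 embryos farthest from the median GFP. The ratio of Nr5a2 to GFP in CPM, which is not corrected for transcript length, averaged 0.832 ± 0.0996 (SD, n = 42) and ran from 0.581 to 1.19. Its extremes were both in experiment 2: embryo 19, the second highest in GFP, had the lowest ratio and embryo 35, the lowest in GFP, had the highest.

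The relation to GFP lay in the annotated Nr5a2 transcripts, and not in a separate Nr5a2 gene sequence entry of the count table. Among the annotated transcripts, ENSMUST00000192929 held a median of 2813 CPM, ENSMUST00000192357 held 425 CPM and ENSMUST00000027649 held 276 CPM in the 42 embryos. Medians in embryos labelled SR1848 were 4.17, 0 and 8.93 CPM, and in embryos labelled DMSO 60.6, 38.0 and 18.2 CPM, in the same order. The gene sequence entry had a median of 124 CPM in the 42 embryos. Its median was 140 CPM in the 14 embryos of the same label with under 100 CPM of GFP. With SR1848 its median was 35.7 CPM, and with DMSO 59.9 CPM. It did not track GFP detectably (r = 0.047, rho = 0.116, permutation p = 0.77 and 0.494, adjusted p = 0.975 and 0.91).

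Hist2h2be was the other gene that rose with GFP. It encodes a histone H2B, a core protein of the nucleosome (ENSMUSG00000068854, GRCm38 chr3:96221119-96223738). It had 527 CPM in the embryo with the lowest GFP and 4036 CPM in the embryo with the highest, with a median of 1560 CPM. The median was 0 CPM both in embryos labelled SR1848, 30 of 40 of which had no count, and in embryos labelled DMSO, with highest values of 3.73 and 0.606 CPM. The slope was 1.10 (SE 0.051, 95% interval 1.00 to 1.21, n = 42, adjusted p = 4.72e-21, edgeR), with 1.17 in experiment 1 and 1.06 in experiment 2. Its ratio to GFP in CPM averaged 0.391 ± 0.0340 (SD, n = 42) and ran from 0.321 to 0.493, with 0.372 ± 0.0335 (SD, n = 17) in experiment 1 and 0.403 ± 0.0288 (SD, n = 25) in experiment 2.

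Fusions of H2B with GFP are widely used to mark nuclei, and whether the injected GFP mRNA carried such a sequence was not tested, since the labels do not describe it. Of the other histone H2B genes, looked up after this result was seen, none that was tested passed the threshold. Hist1h2bh, at a median of 58.6 CPM in the 42 embryos and 54.1 CPM with SR1848, had a slope of 0.25 (SE 0.11, adjusted p = 1, edgeR). Hist1h2bc, Hist3h2ba, Hist1h2bk and Hist1h2bj had slopes from -0.62 to 0.41, each with an adjusted p of 1 (edgeR). Their medians were only 1.88 to 4.04 CPM and their SE 0.32 to 0.47, so these slopes were measured coarsely. The remaining 14 H2B genes had too few counts to be tested.

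The 8 libraries labelled DMSO 1 to 8 of experiment 2 were not used to choose or fit anything here, and they held GFP against their label. GFP there ran from 47.4 to 7075 CPM with a median of 2491 CPM. Hist2h2be ran from 20.1 to 2730 CPM in the same order as GFP in all 8 (r = 0.997, exact permutation p = 2.48e-05; rho = 1, exact p = 4.96e-05, both 2-sided). Nr5a2 ran from 88.3 to 5395 CPM (r = 0.999, exact permutation p = 7.44e-05; rho = 0.976, exact p = 0.000397). Without the 2 libraries farthest from the median GFP the r was 0.997 for Hist2h2be and 0.977 for Nr5a2.

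**Figure D2:**
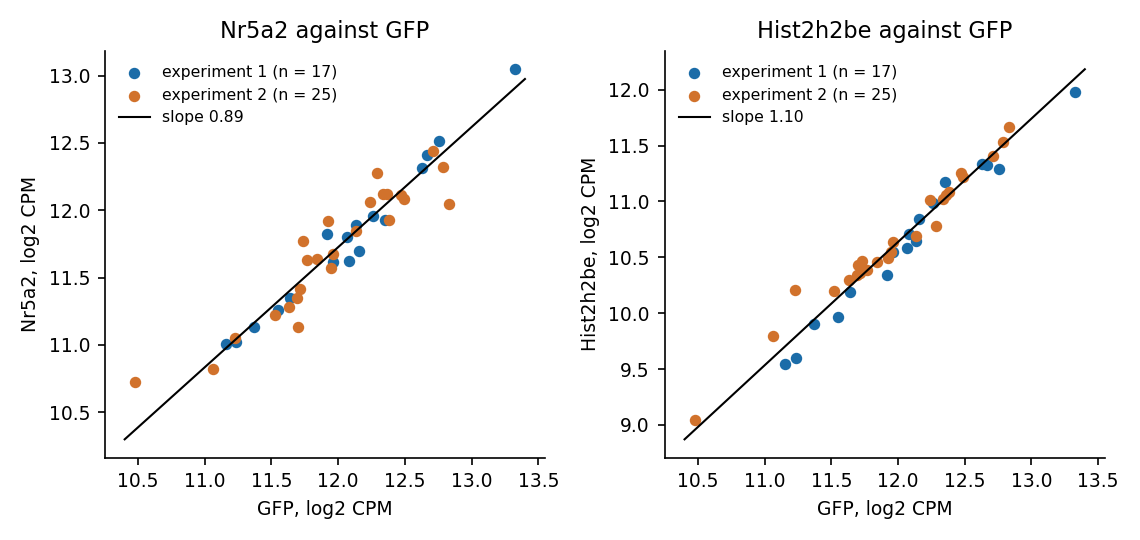
Nr5a2 (left) and Hist2h2be (right) against GFP in the 42 embryos, both in log2 CPM; each point is 1 embryo, coloured by experiment, and the line has the fitted slope (0.89 and 1.10) through the mean. The embryos of both experiments lie near the line, from 1691 to 8463 CPM of Nr5a2 and from 527 to 4036 CPM of Hist2h2be.

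Beyond these genes, no transcript followed GFP at the threshold. Of 12364 genes tested, 2 rose with GFP (0.0162%) and 0 fell (0%) at an adjusted p under 0.05 (edgeR quasi-likelihood test, experiment as a term). At an unadjusted p under 0.05, 282 genes had a positive and 232 a negative slope, 4.16% of those tested. DESeq2 called 5 rising (Hist2h2be, Nr5a2, Esrrb, P4ha1 and Npffr1) and 1 falling (Rbbp6). The limma-voom fit called 3 rising (Hist2h2be, Nr5a2 and Esrrb) and 0 falling. The counts depended on the embryos admitted: with 3 more embryos at 32.7, 38.7 and 70.8 CPM of GFP, edgeR called 1285 rising and 1412 falling genes of 12442, and with no filter on low counts it called 404 and 239 of 28696, of which 631 fail the filter used here. The median slope over all genes was 0.00. The median SE was 0.27 over all genes and 0.14 over the 3548 genes averaging at least 5 log2 CPM. Some abundant genes that varied much among embryos had a larger SE, such as Tmem72 (mean 10.9 log2 CPM, SE 0.52).

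The intervals bound what the data could have missed. For 82.3% of all genes, and 98.5% of those averaging at least 5 log2 CPM, the 95% interval of the slope lay below 1, the slope of proportional tracking. For 69.0% of all genes and 98.0% of the more abundant ones the interval lay wholly between -1 and 1. Slopes nearer 0 were not detectable in many of the less abundant genes. The 5th to 95th percentile of slopes was -0.50 to 0.52 over all genes and -0.25 to 0.26 among the more abundant ones.

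**Figure D3:**
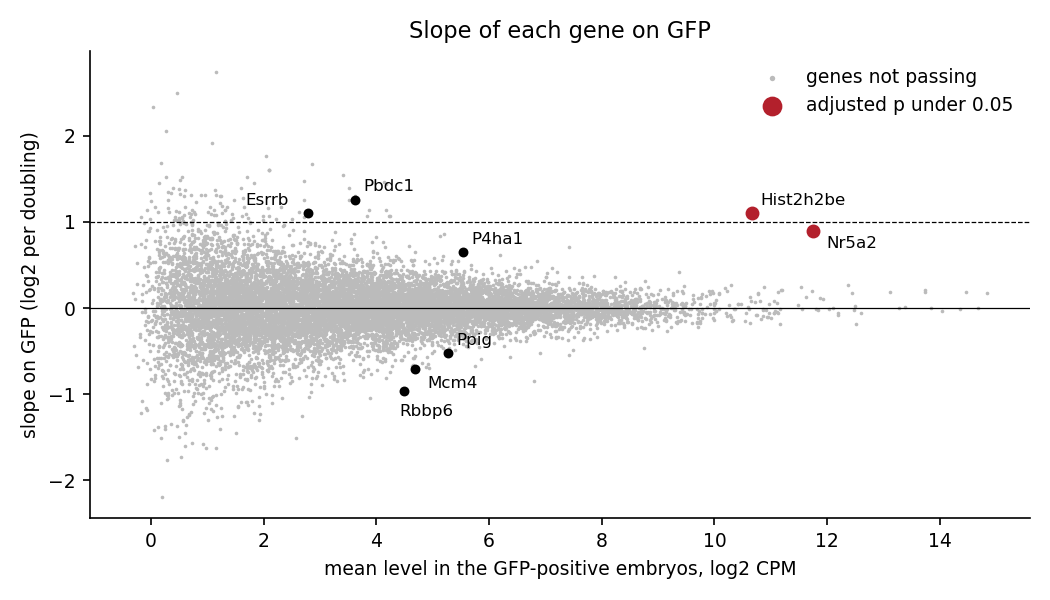
Slope of each of the 12364 tested genes on GFP (log2 per doubling of GFP) against its mean level in the 42 embryos (log2 CPM); the solid line is 0, the dashed line is 1, and red points pass an adjusted p of 0.05. Only Hist2h2be and Nr5a2 pass; the cloud narrows as the level rises.

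On the rising side Esrrb came closest to the threshold without passing it. This orphan nuclear receptor of the pluripotency network (chr12:86361117-86521628) had 0 CPM in embryo 24 of experiment 1, a median of 7.43 CPM and 28.8 CPM in the embryo with the highest GFP. Its median was 1.80 CPM with SR1848 and 6.63 CPM with DMSO. Its slope was 1.10 (SE 0.24, 95% interval 0.62 to 1.58) and did not pass (adjusted p = 0.122, edgeR). The slope was 1.45 in experiment 1, with 2 embryos at or near 0, and 0.88 in experiment 2. DESeq2 and limma-voom called Esrrb as rising, and so did edgeR once embryo 27 of experiment 1 (0.51 CPM of Esrrb) or embryo 35 of experiment 2, the lowest in GFP, was left out.

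P4ha1, a subunit of the prolyl hydroxylase that modifies collagen (chr10:59323296-59373304), had 17.0 CPM at its lowest, a median of 44.3 CPM and 106 CPM at its highest. Its slope was 0.65 (SE 0.14, adjusted p = 0.122, edgeR), and DESeq2 called it as rising. With the low-depth library (embryo 22 of experiment 1) kept, its slope was 0.21. The median was 60.8 CPM with SR1848 and 35.2 CPM with DMSO, so its level in the 42 embryos lay between the medians of those groups. Cyfip2, a part of the WAVE complex that acts on actin, had a slope of 0.72 (SE 0.20, adjusted p = 0.939, edgeR). Hgs, which sorts proteins at endosomes, had a slope of 0.46 (SE 0.13, adjusted p = 0.939, edgeR). Klf7 (a zinc finger factor, 0.32), Pbdc1 (1.26) and Scn8a (a sodium channel, 0.57) also had a small p without passing. With Hist2h2be, Nr5a2, P4ha1, Cyfip2 and Hgs they are the 8 rising genes with the smallest p among those that met the naming conditions. The mean had to reach 3 log2 CPM, a level that Esrrb did not reach. The sign had to be the same in both experiments and without the 2 lowest and 2 highest embryos in GFP. Predicted genes, clones and pseudogenes were left out by symbol.

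On the falling side Rbbp6 came first. It encodes a ubiquitin ligase that also takes part in 3' end processing of mRNA (chr7:122965686-123002557). It ran from 2.91 CPM to 122 CPM with a median of 23.5 CPM in the 42 embryos, against medians of 17.8 CPM with SR1848 and 373 CPM with DMSO. Its slope was -0.96 (SE 0.22, 95% interval -1.41 to -0.51), which did not pass (adjusted p = 0.214, edgeR). DESeq2 called it as falling, and edgeR did so only without embryo 35 of experiment 2, among the 42 embryos left out in turn.

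Ppig, a nuclear peptidyl-prolyl isomerase tied to splicing (chr2:69722545-69754012), had a slope of -0.52 (SE 0.13, adjusted p = 0.406, edgeR), with -0.85 in experiment 1 and -0.26 in experiment 2. Its range was 17.8 to 101 CPM with a median of 37.2 CPM, and the medians were 65.5 CPM with SR1848 and 289 CPM with DMSO. Mcm4, of the replicative helicase, had a slope of -0.71 (SE 0.20, adjusted p = 0.939, edgeR). Azin1, an antizyme inhibitor (-0.54), Rictor, of the mTORC2 complex (-0.39), and Sypl (-0.45) followed. Nop58, of the box C/D snoRNP (-0.80), and Fbxo33, an F-box protein (-0.76), completed the 8 with the smallest p under the same naming conditions. None of them passed.

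The promoters of the genes that led each direction and have a RefSeq entry were read, since NR5A2 binds extended AGGTCA sites. The searched forms were TCAAGGTCA, TCAAGGCCA, CCAAGGTCA and CCAAGGCCA on both strands, and no form is part of another. Over all 32817 promoter windows of 300 bases in the RefSeq table (GRCm38.p6), 2.22% held a match, and over the 11726 windows of tested genes 1.71% did. No window below held a match, so no letter is in capitals, and nothing about binding follows from that. Nr5a2 has 2 windows in the table, of which the first is shown. It belongs to the embryo's own gene, while Hist2h2be had no window in the table.
Nr5a2 promoter, chr1:136960399-136960698, minus strand: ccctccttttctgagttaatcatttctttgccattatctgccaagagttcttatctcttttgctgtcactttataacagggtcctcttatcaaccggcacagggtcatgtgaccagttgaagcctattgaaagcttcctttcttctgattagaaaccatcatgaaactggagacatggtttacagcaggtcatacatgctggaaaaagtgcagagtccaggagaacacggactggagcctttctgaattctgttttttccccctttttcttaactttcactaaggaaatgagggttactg
P4ha1 promoter, chr10:59323046-59323345, plus strand: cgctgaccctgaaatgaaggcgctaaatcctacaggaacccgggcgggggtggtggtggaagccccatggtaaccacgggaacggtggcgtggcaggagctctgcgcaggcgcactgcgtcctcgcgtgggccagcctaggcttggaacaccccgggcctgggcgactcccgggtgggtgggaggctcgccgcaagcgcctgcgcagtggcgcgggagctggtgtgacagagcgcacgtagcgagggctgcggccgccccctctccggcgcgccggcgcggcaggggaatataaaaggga
Rbbp6 promoter, chr7:122970314-122970613, plus strand: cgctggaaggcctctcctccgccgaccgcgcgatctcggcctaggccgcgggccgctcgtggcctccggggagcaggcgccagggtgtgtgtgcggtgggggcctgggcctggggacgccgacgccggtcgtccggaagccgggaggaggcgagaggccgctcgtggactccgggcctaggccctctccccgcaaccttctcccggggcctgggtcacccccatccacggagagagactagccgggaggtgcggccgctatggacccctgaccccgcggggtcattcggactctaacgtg
Ppig promoter, chr2:69722838-69723137, plus strand: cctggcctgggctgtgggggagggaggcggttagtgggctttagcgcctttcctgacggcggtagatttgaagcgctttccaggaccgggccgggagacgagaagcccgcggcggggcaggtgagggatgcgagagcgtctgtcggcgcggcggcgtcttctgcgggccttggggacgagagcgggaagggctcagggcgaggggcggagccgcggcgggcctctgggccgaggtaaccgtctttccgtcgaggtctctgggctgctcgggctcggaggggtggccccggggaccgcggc

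The slopes did not differ detectably between the experiments. The interaction of experiment with GFP passed for 0 of 12364 genes (edgeR, adjusted p under 0.05), with 222 positive and 213 negative at an unadjusted p under 0.05. DESeq2 and limma-voom also called 0.

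**Figure D4:**
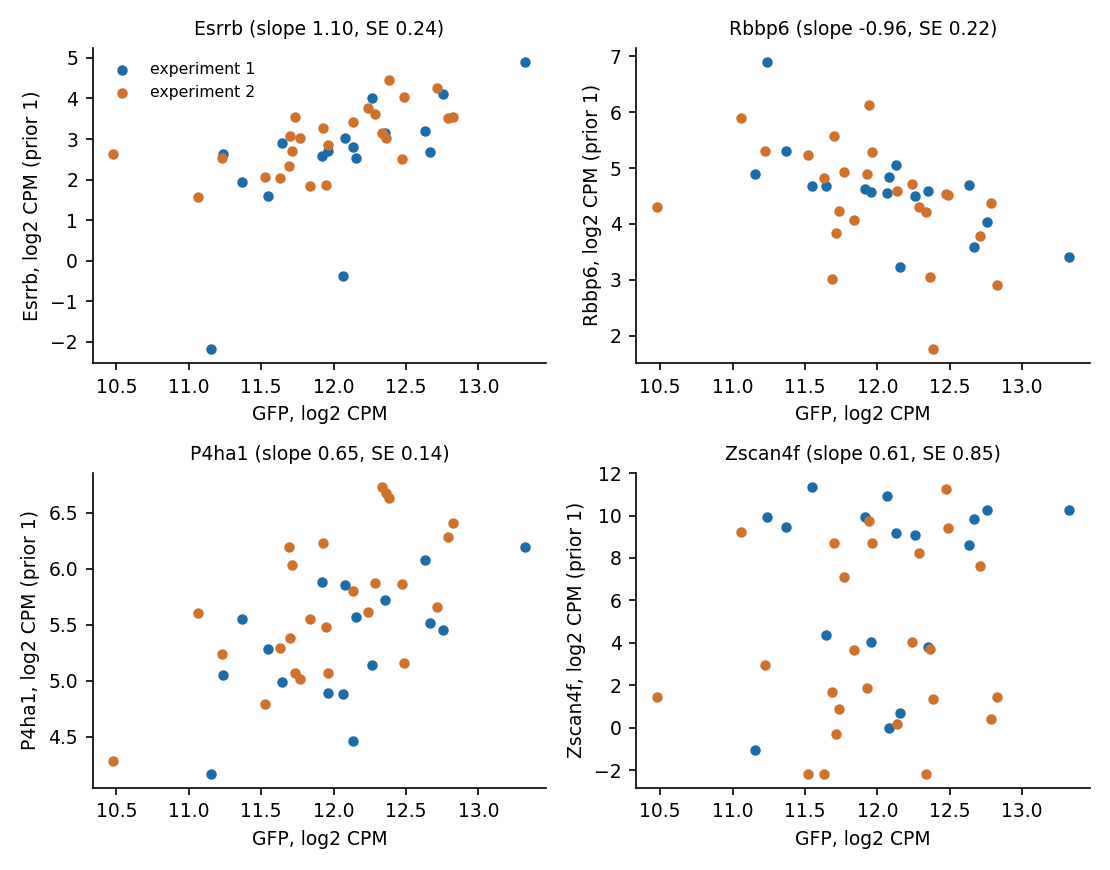
Levels of Esrrb, Rbbp6, P4ha1 and Zscan4f (log2 CPM with a prior count of 1) against GFP (log2 CPM) in the 42 embryos, coloured by experiment. Esrrb (slope 1.10), P4ha1 (0.65) and Rbbp6 (-0.96) lean with GFP without passing the threshold, and Zscan4f (0.61, SE 0.85) has embryos with little and with much of it among both lower and higher GFP levels, from 0 to 2847 CPM.

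The gene lists held 1047 distinct symbols, of which 925 genes had enough counts to be tested. Nr5a2 was the 1 list member that passed. Over all genes tested only 0.0162% rose and 0% fell, so a count of 0 in a list lies near that share. Such a count is not by itself a result about the list. In the list of NR5 receptors, their partners and inhibitors, 1 of 10 tested members rose and 0 fell, with a median slope of 0.09 and Esrrb next. Of 13 tested genes known as NR5A2 targets in other tissues, 0 rose and 0 fell, with a median slope of -0.04. The most abundant were Pou5f1, the pluripotency factor OCT4 (slope 0.23, SE 0.13), and Ccne1, a G1/S cyclin (-0.19, SE 0.27). The levels of both are given by their medians: Pou5f1 had 131 CPM in the 42 embryos, 138 CPM with SR1848 and 34.2 CPM with DMSO, and Ccne1 had 77.9, 29.6 and 492 CPM in the same groups.

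Transcripts of the zygotic and maternal programmes did not pass either. Of 47 tested 2-cell transcripts 0 rose and 0 fell, with a median slope of 0.10 and slopes from -1.58 (Tdpoz1) to 1.31 (Rfpl4b). The upper bound of the interval lay below 1 in 19 of the 47, against 82.3% of all genes tested. Proportional tracking was thus less often bounded in this list than over all genes. Tmem92 and Lpin2, the most abundant, had slopes of -0.05 (SE 0.25) and 0.00 (SE 0.14). Of 13 Obox and PRD-like homeobox genes 0 rose and 0 fell, with a median of -0.04; Obox5 had -0.06 (SE 0.22) and Sebox -0.06 (SE 0.11). Of 33 early lineage factors 0 rose and 0 fell, with a median of 0.11; Klf17 had 0.20 (SE 0.11) and Dppa3, a maternal factor that protects DNA methylation, -0.25 (SE 0.24). Of 80 maternal transcripts 0 rose and 0 fell, with a median of 0.03; Zbed3, of the subcortical maternal complex, had 0.27 (SE 0.21) and Omt2a 0.00 (SE 0.08).

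For genes of the ribosome and protein synthesis 0 passed as well. Of 96 nucleolar and ribosome biogenesis genes 0 rose and 0 fell, with a median slope of -0.02 and 85 of 96 upper bounds below 1; Gtpbp4, a nucleolar GTPase, had 0.12 (SE 0.20) and Nop56 0.38 (SE 0.32). Of 80 cytosolic ribosomal proteins 0 rose and 0 fell, with a median of -0.03; Rps27l had -0.10 (SE 0.15) and Rpl41 -0.36 (SE 0.32). These families share reads with near-identical copies, so single members are uncertain. Of 38 translation factors 0 rose and 0 fell (median -0.03; Eif5a 0.04, SE 0.13, and Eif4e 0.05, SE 0.21). Of 39 proteasome genes 0 rose and 0 fell (median 0.00; Psme4 -0.17, SE 0.10, and Psmd11 0.07, SE 0.12). Slopes ran from -1.60 (Ddx10) to 0.62 (Ftsj3) in the nucleolar list. They ran from -1.03 (Eif1a) to 0.42 (Eef1d) in translation factors and from -1.22 (Psmg2) to 0.47 (Psmc3) in proteasome genes. At an unadjusted p under 0.05 (edgeR), 2 translation factors had a positive and 5 a negative slope. For proteasome genes these counts were 2 and 3, and over all genes tested the share was 4.16%.

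Transcription, RNA processing and replication genes gave the same counts. Of 47 genes of RNA polymerase II and elongation 0 rose and 0 fell (median -0.07; Polr2c 0.04, SE 0.08, and Gtf2a1 -0.23, SE 0.16). Of 55 spliceosome genes 0 rose and 0 fell (median -0.09; Hnrnpa1 0.07, SE 0.11, and Snrpg -0.09, SE 0.21). Of 53 genes of mRNA decay and poly(A) control 0 rose and 0 fell (median 0.01; Btg4, an adaptor of the deadenylase, 0.09, SE 0.25, and Cnot7, a deadenylase, -0.01, SE 0.11). Of 65 replication and cell cycle genes 0 rose and 0 fell (median -0.06; Pola2 0.07, SE 0.18, and Ccna2 -0.15, SE 0.10). Of 40 DNA repair genes 0 rose and 0 fell (median 0.01; Chek1 -0.23, SE 0.13, and Brca2 -0.02, SE 0.15).

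Stress and metabolism lists were likewise without a call. Of 24 p53 targets 0 rose and 0 fell (median -0.07; Mdm4 0.03, SE 0.07, and Rrm2b -0.14, SE 0.10). Of 38 heat shock and unfolded protein response genes 0 rose and 0 fell (median -0.09; Hsf1 0.06, SE 0.08, and Hspa5 0.08, SE 0.44). Of 14 genes of the response to foreign RNA, which includes interferon pathway genes that injected mRNA can engage, 0 rose and 0 fell (median 0.04; Adar 0.02, SE 0.16, and Mavs 0.09, SE 0.15), while 17 of 31 listed genes were not tested, having too few counts. Of 22 oxidative stress genes 0 rose and 0 fell (median -0.05; Prdx2 0.05, SE 0.09, and G6pdx 0.25, SE 0.15). Of 32 lipid and sterol genes 0 rose and 0 fell (median -0.02; Fdft1 0.19, SE 0.24, and Hmgcs1 0.11, SE 0.17). Of 25 purine, serine, folate and vitamin B6 genes 0 rose and 0 fell (median -0.11; Mthfd2 0.06, SE 0.13, and Adss -0.01, SE 0.11). Of 51 nuclear-encoded oxidative phosphorylation genes 0 rose and 0 fell (median -0.11; Cox8a -0.15, SE 0.11, and Atp5b -0.19, SE 0.15). All 13 mitochondrially encoded mRNAs had slopes from -0.17 to 0.02, and 0 passed (mt-Cytb 0.00, SE 0.13, and mt-Atp6 -0.03, SE 0.14).

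Markers of other cell types did not move with GFP at the threshold. Of 6 tested cumulus and granulosa markers, 2 tested spermatid markers and 6 tested blood and epithelium markers, 0 rose and 0 fell, with median slopes of -0.21, -0.05 and 0.32. Kitl had -0.29 (SE 0.31), Col4a2 -0.38 (SE 0.38), Odf2 0.17 (SE 0.10), Acrv1 -0.26 (SE 0.38), Hba-a2 0.01 (SE 0.30) and Krt18 0.24 (SE 0.22). The 6 blood and epithelium markers scattered from -0.60 (Epcam) to 1.52 (Krt14), and 3 had an upper bound below 1. At an unadjusted p under 0.05 (edgeR), 1 of the 6 had a positive and 1 a negative slope, against 4.16% of all genes tested.

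**Figure D5:**
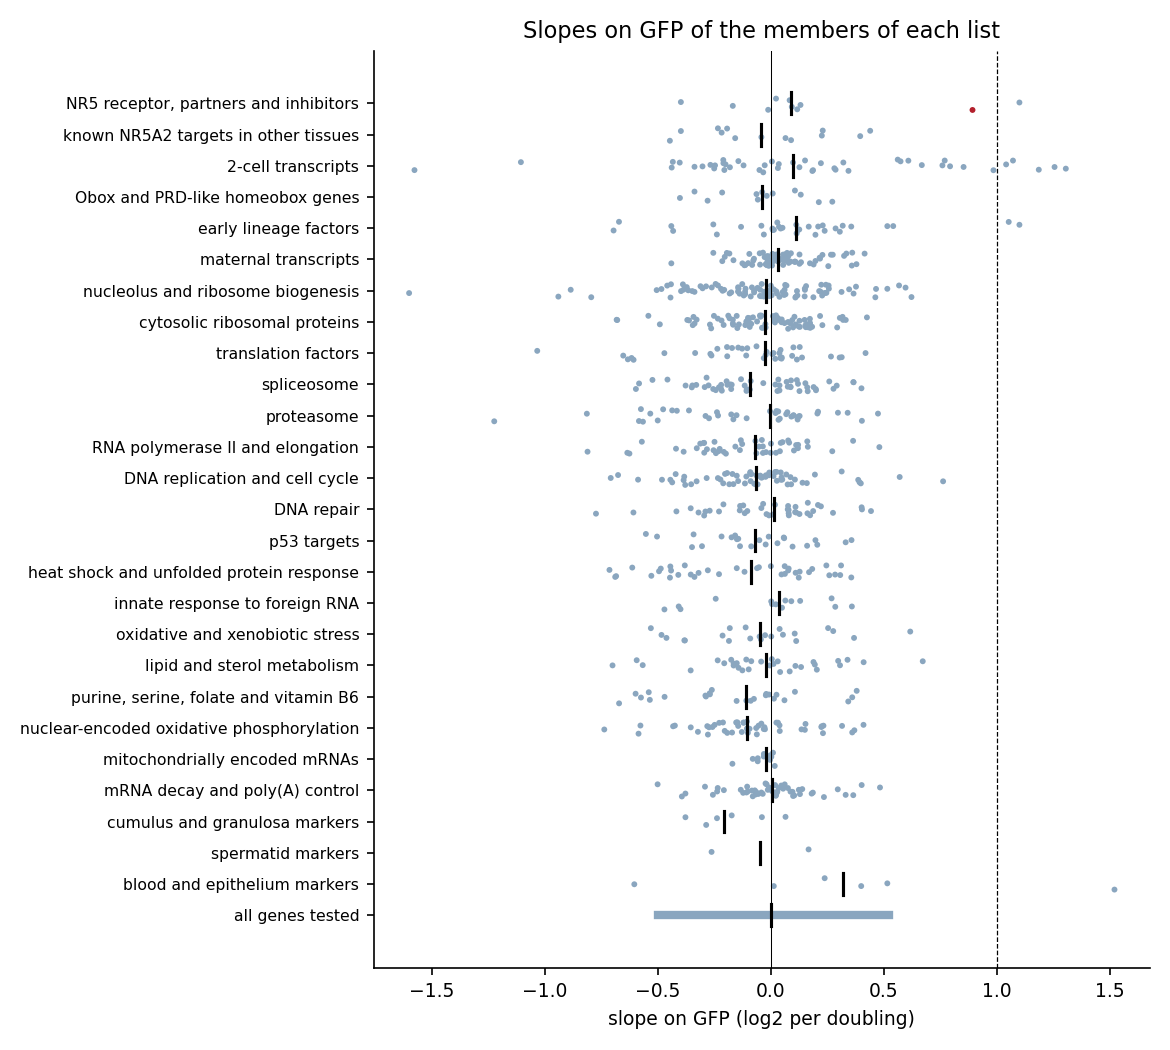
Slopes on GFP (log2 per doubling of GFP) of the tested members of each gene list; each point is 1 gene, the short black line is the list's median, red marks an adjusted p under 0.05 (Nr5a2), the dashed line is a slope of 1, and the bar in the bottom row spans the 5th to 95th percentile of all genes. List medians lie between -0.21 and 0.32, and all but Nr5a2 fail the threshold.

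Genes sensitive to the inhibitor were then followed along the dose. In experiment 1, 5131 of 11768 genes (43.6%) were lower and 4450 (37.8%) were higher in 16 embryos with SR1848 than in 16 with DMSO, and none of these embryos is in the dose fit. Of the lower genes 4283 were tested against GFP; 1 rose (Nr5a2 itself) and 0 fell, with a median slope of -0.06 and positive slopes in 39.8%. Of the higher genes 4456 were tested; 0 rose and 0 fell, with a median slope of 0.02 and positive slopes in 55.6%. Over all genes tested the median was 0.00 and 50.2% were positive. At an unadjusted p under 0.05 (edgeR), 37 of the lower genes had a positive and 135 a negative slope. For the higher genes these counts were 159 and 56. Both directions together made up 4.02% of the lower and 4.82% of the higher genes. Over all genes tested the share was 4.16% (282 positive and 232 negative), so both classes lay near it. The 1480 genes lower by over 3 log2 had a median slope of -0.14. In experiment 1 of the injected embryos alone the median slopes were -0.13 for the lower and 0.04 for the higher genes. In experiment 2 alone they were 0.01 for both, so the small shift of the lower genes was not seen there. These 2 fits held 2554 and 2755 of the lower genes, so the sets of genes differ. Across 10831 genes, which are not independent, the slope on GFP and the log2 fold change with SR1848 had r = 0.226.

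The embryos nevertheless differed from each other in much besides the dose. The first principal component of log2 CPM, after removing experiment means, held 19.0% of the variance, and its relation to GFP was r = 0.015 (rho = 0.035, permutation p = 0.929 and 0.84, adjusted p = 0.975 and 0.91). The most variable gene averaging at least 5 log2 CPM, chosen after its values were seen, was Zscan4f, a 2-cell marker gene that belongs to a family of near-identical copies. It had 0 CPM in 3 embryos, a median of 19.0 CPM and 2847 CPM at most, and 20 of the 42 embryos (11 of 17 in experiment 1 and 9 of 25 in experiment 2) were at 100 CPM or more. In embryos labelled SR1848 it ran from 2.31 to 422 CPM, and in those labelled DMSO from 10.2 to 61.6 CPM. Its slope on GFP was 0.61 with an SE of 0.85, so the error was larger than the slope.

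Tmem72 had a range of 222 to 25753 CPM in the 42 embryos with a median of 1484 CPM, against 279 to 13830 CPM with SR1848 and 8112 to 27956 CPM with DMSO. Its slope was 0.25 (SE 0.52). Zfp352, a 2-cell zinc finger gene, ran from 0.898 to 441 CPM with a slope of -0.03 (SE 0.60). The share of counts from the 56 matched genes of the 2-cell list ran from 0.052% to 1.11% with a median of 0.103% in the 42 embryos. The median was 0.133% with SR1848 and 0.721% with DMSO. Of the 42 embryos, 3 lay above the highest embryo with DMSO (0.887%) and 34 lay below the lowest (0.550%). These DMSO embryos are all of experiment 1. Among the 42, the median share was 0.310% in the 17 of experiment 1 and 0.0970% in the 25 of experiment 2. In the 14 embryos of the same label with under 100 CPM of GFP the median was 0.693%.

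That share was not related to GFP detectably (r = 0.074, rho = 0.02, permutation p = 0.649 and 0.91, adjusted p = 0.975 and 0.91). The embryo with the lowest GFP had a 2-cell share of 0.0793%, the next lowest had 0.298%, and the embryos with the second highest and the highest GFP had 0.0661% and 0.385%. The share of maternal transcripts, 2.40% to 6.22%, had r = -0.005 (rho = 0.033, permutation p = 0.975 and 0.845, adjusted p = 0.975 and 0.91).

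Depth and quality of the libraries had no detectable relation to GFP. The library total had r = -0.127 (rho = -0.079, permutation p = 0.428 and 0.644) and the number of genes detected had r = 0.045 (rho = 0.055, permutation p = 0.781 and 0.744). The share of mitochondrially encoded mRNA, 5.50% to 17.8%, had r = -0.098 (rho = -0.054, permutation p = 0.544 and 0.751). The B1 and B2 SINE entries had r = 0.115 (rho = 0.246, permutation p = 0.475 and 0.141) and r = -0.107 (rho = -0.096, permutation p = 0.503 and 0.571). After adjustment over the 10 measures each of these p was 0.975 for r, and 0.703 (B1) or 0.91 (the others) for rho. Without the 2 embryos farthest from the median GFP these r ran from -0.162 to 0.193.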

How the data were processed

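Single-embryo SmartSeq2 libraries with oligo-dT priming were sequenced. Per the submitters' processing notes, bcl2fastq, Trim Galore 0.6.2, kallisto 0.46.1, R 3.5.1 and DESeq2 1.32.0 were used, with the builds mm10 and hg19; what hg19 served for was not given in the sources used here. Deposited by the authors were expected counts, as estimated by kallisto, for 119358 transcript entries in 137 libraries; 26.3% of values are not whole (tolerance 1e-09). The column prefixes C88 and ComS were read as SR1848 with NR5A2 mRNA and as SR1848, by matching numbers and experiments to the labels.

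Entries were paired with genes through GENCODE M21 (116770 entries, 35971 genes); 2583 unpaired entries held 0.936% of counts, and 5 entries (2 GFP, B1, B2 and an Nr5a2 gene sequence) were kept apart and not tested. Counts were summed by gene and rounded. CPM uses the total of all entries. No strand is kept, and kallisto divides reads among near-identical copies.

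Each gene was fitted on log2 GFP CPM with experiment as a term in edgeR 4.0.16 (quasi-likelihood test, TMM, filterByExpr, adjustment over all 12364 genes at 0.05; R 4.3.3), after a test on simulated data. SE is the slope over the square root of F. The fold change of SR1848 over DMSO was fitted separately. Per-embryo measures used 2-sided tests with 100000 permutations within experiment. Alternatives included DESeq2 1.42.0 and limma 3.58.1 (voom). Named genes were Nr5a2, the genes that passed, 2 members of each list, and the 8 smallest p in each direction under set conditions. The mean had to reach 3 log2 CPM. The sign had to be the same in both experiments and without the 2 lowest and 2 highest embryos in GFP. Predicted genes, clones and pseudogenes were left out by symbol. Zscan4f, Tmem72, Zfp352 and the other H2B genes were chosen after their values were seen. The members and lists were chosen with earlier results of these data known. Library totals ran from 3383462 to 6481041 counts, and no molecular identifiers are present.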

Additional observations from a re-analysis of the deposited data

Results flagged for a closer look

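GFP signal appeared in libraries that the dose fit did not use: the 8 labelled DMSO 1 to 8 of experiment 2 had a median of 2491 CPM of GFP, against at most 0.765 CPM in the embryos of experiment 1 labelled DMSO. Hist2h2be had a median of 1004 CPM in the same 8 libraries, against at most 0.606 CPM in those embryos. The 8 libraries labelled SR1848_NR5A2OE 1 to 8 of experiment 2 had at most 0.452 CPM of GFP.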

How the results depend on the processing

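The same 2 genes, Hist2h2be and Nr5a2, rose and 0 fell under relative log expression scaling, total counts only, scaling to the maternal list, a filter of at least 10 counts in 50% of the embryos, GFP of at least 300 or 1000 CPM, the low-depth library kept, GFP on the TMM-scaled library size, no experiment term, library total or genes detected as a term, each experiment alone, trimming 2 embryos at each end, and the rank of GFP. With Nr5a2 as the dose 1 gene rose (Hist2h2be). DESeq2 gave 5 rising and 1 falling. With no filter on low counts 404 rose and 239 fell, of which 631 were not tested in the filtered table; the same setting gave 167 genes for the interaction and 5 list members. At GFP of at least 30 CPM 3 embryos entered (32.7, 38.7 and 70.8 CPM), and 1285 genes rose and 1412 fell; 19 of 67 named genes then had the opposite sign, of which Sebox (0.14), Hnrnpa1 (-0.11), Hspa5 (-0.33) and Adss (0.13) passed the threshold; Pbdc1, among the leading rising genes, had -0.17 and did not. These counts rest on 3 embryos far below the others, and the cause was not tested. Leaving out each embryo in turn, an addition made after seeing the data, gave 2 to 3 rising and 0 to 1 falling genes. The median slope of genes lower with SR1848 ran from -0.13 to 0.01 and that of genes higher with SR1848 from -0.0034 (total counts only) to 0.04, over the scalings, experiments and trimming. No paired analysis was possible because a single group was fitted on a dose and no groups sharing embryo numbers were compared. The median SE was 0.27 over all genes and 0.14 over those averaging at least 5 log2 CPM. Some abundant genes, such as Tmem72 (SE 0.52), had a larger SE.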
